A study of Rattus norvegicus with 6 samples.

Results

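Transcripts of the growth factor genes Igf1 and Egf and of the receptor gene Erbb2 were followed in basilar artery smooth muscle cells (BASMCs) of rats fed a control or a high-salt diet. The 3 transcripts were selected on the contrast between these diets in the same 6 libraries, since each belongs to the study's list of changed transcripts. Their levels in the groups are therefore given as a description, and their calls in tests run over all transcripts are listed without support for any result. They are 3 of the 31715 transcripts in the deposited table, of which 24253 had at least 1 count after rounding. The table holds transcript identifiers without gene names, and the study's list holds names without identifiers. The names of the 3 transcripts therefore rest on a match of that list to the table, described with the processing. For Egf this match is not unique, as the study gives Clasp1 the same fold change and p. The row called Egf throughout may therefore be the Clasp1 transcript.

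Both groups were male rats of the SD strain, obtained at the age of 6 weeks and with a weight of 180 to 200 g. The control group received normal chow, and the high-salt diet group received the same chow with an additional 4% of NaCl by weight for 4 weeks, by which time its systolic blood pressure had risen. Each group had 3 rats, and each library held the poly(A) RNA of a single rat. Basilar arteries were freed of connective tissue, and the endothelium was stripped off with a wire, so the cells were enriched by dissection, and no sorting is described. Rats were housed 3 to a cage, and whether a cage held rats of 1 diet only is not given in the sources used here.

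Control replicates 1, 2 and 3 had 12896098, 24718338 and 23198636 estimated counts, and high-salt replicates 1, 2 and 3 had 16159272, 19522923 and 20589033. Levels are given in CPM, the usual depth-scaled count unit of RNA-seq, computed with library sizes adjusted by the trimmed mean of M values (TMM). The lowest level that a library could show was set at 3 counts, which corresponds to 0.254, 0.119 and 0.132 CPM in the control libraries and to 0.164, 0.158 and 0.146 CPM in the high-salt libraries. This floor and the 95% intervals given with single values cover counting error only. CPM values do not take transcript length into account, so levels were compared between libraries and not between genes.

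Igf1 encodes insulin-like growth factor 1, a secreted ligand of the receptor tyrosine kinase Igf1r. Egf encodes epidermal growth factor, which is made as a membrane-bound precursor and binds the receptor Egfr, and Erbb2 encodes a receptor of the same family that has no known ligand of its own and signals in pairs with the other members. Both pathways pass through the MAP kinase and the PI3 kinase and Akt cascades, which in vascular smooth muscle are known for their part in proliferation, migration and survival.

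The Igf1 transcript (ENSRNOT00000085680.1) was present in every control library and nearly absent from the high-salt libraries. It had 8.40, 93.6 and 59.0 estimated counts in control replicates 1, 2 and 3, which correspond to 0.712, 3.71 and 2.60 CPM. In high-salt replicate 1 it had 2.34 counts, or 0.128 CPM, and in high-salt replicates 2 and 3 it had 0. Control replicate 2 was the highest and control replicate 1 the lowest of the controls, and the groups did not overlap. The transcript was selected on this contrast, and the share of all transcripts without overlap was not counted, so nothing is read from this. The interval of control replicate 1, 0.293 to 1.34 CPM, overlapped that of high-salt replicate 1, 0.0133 to 0.395 CPM. The mean level was 2.34 ± 1.52 CPM (n = 3, SD) in the control group and 0.0426 ± 0.0739 CPM (n = 3, SD) in the high-salt diet group. With 161 rounded counts pooled over the controls against 2 over the high-salt rats, the ratio of the pooled counts after scaling was 77.9, with an exact interval of 21.2 to 649 for counting error. This ratio rests on 2 rounded counts, below the floor of a single library, and was 50.2 without high-salt replicate 3. Without high-salt replicate 1, which held these counts, the transcript was at least 15.4-fold lower with the high-salt diet. In bulk RNA, fewer cells of a type and less RNA per cell cannot be told apart.

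The Egf transcript (ENSRNOT00000089504.1) was likewise present in the control libraries and had no count in any high-salt library. Its name comes from a fold change and p that the study also gives for Clasp1, so it may be the Clasp1 transcript instead. Control replicates 1, 2 and 3 had 8.80, 69.6 and 26.0 counts, or 0.746, 2.76 and 1.14 CPM. Control replicate 2 was again the highest and control replicate 1 the lowest. The groups did not overlap, from which, as for Igf1, nothing is read. The control mean of 1.55 ± 1.07 CPM (n = 3, SD) was set against the floor of 3 counts in each high-salt library, so that the transcript was at least 9.92-fold lower with the high-salt diet. Without control replicate 2 this bound was 6.05-fold. On the log2(CPM + 1) scale, which understates differences at such low levels, the high-salt group mean minus the control group mean was -1.56 for Igf1 and -1.27 for Egf. Between same-numbered libraries this difference was -0.60, -2.24 and -1.85 for Igf1. For Egf it was -0.80, -1.91 and -1.10, so for both ligands replicate 1 gave the smallest difference. The spread within the control group was wide for both ligands, with a coefficient of variation of 64.8% for Igf1 and 68.8% for Egf.

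The Erbb2 transcript (ENSRNOT00000078744.1) was seen in 1 rat. High-salt replicate 2 had 210 counts, and high-salt replicates 1 and 3 and control replicates 1, 2 and 3 had 0. The level in high-salt replicate 2 was 11.1 CPM, with a Poisson interval of 9.62 to 12.7 CPM. The groups overlapped at 0, since 2 of the 3 high-salt libraries were at the same level as the controls. The high-salt mean of 3.70 ± 6.40 CPM (n = 3, SD) was at least 21.9-fold higher than the control floor of 3 counts in each library. This value rests on high-salt replicate 2 alone, and without that library the transcript had no count in either group. The bound was 32.9-fold without high-salt replicate 1 and likewise without high-salt replicate 3. The log2(CPM + 1) difference of 1.20 was smaller than the SD of 2.08 within the high-salt diet group, and it was 0 without that library.

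**Figure D1:**
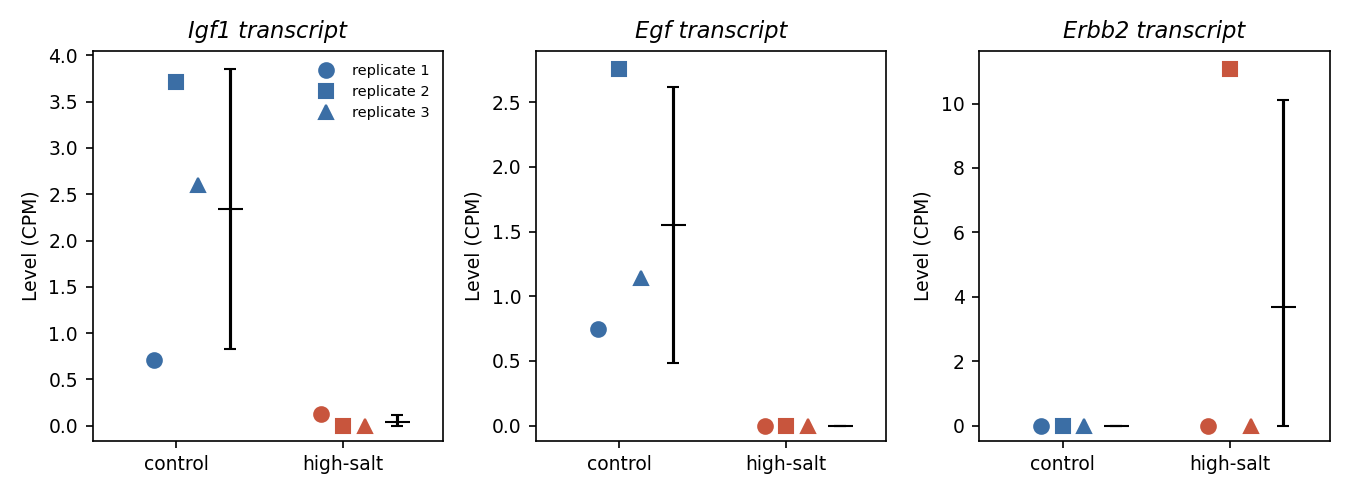
Levels in CPM of the Igf1, Egf and Erbb2 transcripts in each library of the control and high-salt groups, with the replicate shown by the shape of the point and the group mean and SD (n = 3) as a bar that is drawn no lower than 0. The Igf1 and Egf points of the control group lie above all high-salt points, whereas the Erbb2 level of 11.1 CPM in high-salt replicate 2 is the sole value above 0. All 3 transcripts were selected on this contrast.

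Among the 24253 transcripts tested with the exact test of edgeR, 157 (0.647%) were called lower and 140 (0.577%) higher in the high-salt diet group, on the condition of a 2-fold or larger change with an unadjusted p under 0.05. Of the 3 transcripts selected on this contrast, 2 were called lower, those of Igf1 and Egf, and Erbb2 was tested and not called. Nothing is read from these counts, as the same contrast chose the transcripts. After Benjamini-Hochberg adjustment over all transcripts tested, 1 transcript was called lower and 0 higher, and none of the 3 was called. With 1 library left out, the adjusted calls numbered 1 to 6 lower and 2 to 7 higher, the most in total without high-salt replicate 1 (6 and 6), and none of the 3 was among them. The quasi-likelihood test of edgeR with the replicate number as a block called 82 lower and 83 higher at the unadjusted threshold. Igf1 and Egf passed the expression filter used before that test and Erbb2 did not. Erbb2 was called when high-salt replicate 1 or high-salt replicate 3 was left out of the exact test. It was not called without any 1 of the 3 control libraries, and without high-salt replicate 2 it had no count to test. On unrounded counts, with every transcript kept and tagwise dispersions, a setting chosen after seeing the data, the exact test called all 3 transcripts at the unadjusted threshold and none after adjustment. The names of the study's called transcripts were paired with identifiers in this setting, so these unadjusted calls were fixed in advance.

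How usual the patterns of the 3 transcripts were was counted over all 24253 transcripts. The pattern of Egf, with counts in all 3 control libraries and in no high-salt library, was shown by 69 transcripts (0.285%), of which 8, Egf included, had at least as many counts in total as Egf. Its mirror image, with counts in all 3 high-salt libraries and in no control library, was shown by 29 transcripts (0.120%). Leaving out a library loosens these conditions and raises both numbers, to between 92 (without high-salt replicate 2) and 356 (without high-salt replicate 1) for the pattern of Egf and to between 56 (without control replicate 2) and 137 (without high-salt replicate 2) for the mirror image. The mirror image was the more frequent of the patterns without high-salt replicate 2, with 137 against 92, and the less frequent without any 1 of the other 5 libraries. High-salt replicate 2 also had the fewest transcripts with a count, 16831, against 18961 to 21154 in the other 5 libraries. The pattern of Igf1, with counts in all 3 control libraries and in high-salt replicate 1 alone of its group, was shown by 287 transcripts (1.18%).

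The pattern of Erbb2 was that of 163 transcripts, Erbb2 included, which were detected in no library but high-salt replicate 2. With at least 100 counts in the library that held them, 62 transcripts were present in a single library, and 28 of these were in high-salt replicate 2. The other libraries had 2, 9 and 4 such transcripts in control replicates 1, 2 and 3 and 10 and 9 in high-salt replicates 1 and 3. At or above the count of Erbb2 itself there were 11 transcripts found in high-salt replicate 2 alone, Erbb2 included. Abundant transcripts present in 1 library only were thus most numerous in the library that held Erbb2. The part of this library's make-up in the Erbb2 value was not tested.

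**Figure D2:**
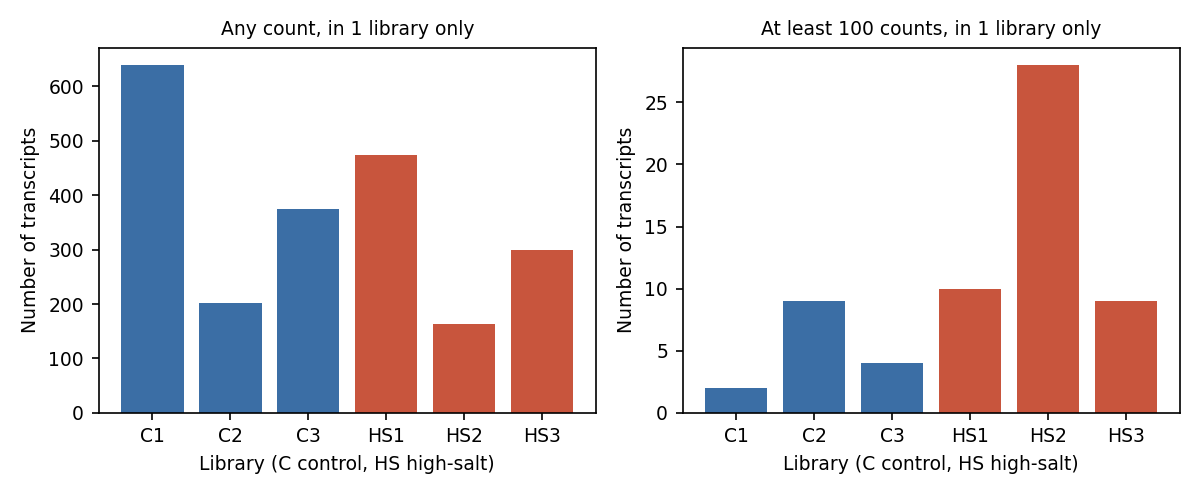
Number of transcripts with counts in 1 library only, by the library that holds them (C, control; HS, high-salt), for any count on the left and for at least 100 counts on the right. High-salt replicate 2 has the fewest of the first kind, 163, and the most of the second, 28.

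Kallisto splits a read that maps to more than 1 transcript between these, so the count of 1 transcript can change while the sum of those that share its reads does not. Counts that differed from a whole number by more than 1e-06 were found in at least 1 library for 13614 of the 31715 transcripts, which include all 3 described here. Adjacent rows of the table that share reads can be recognised where their counts sum to a whole number, within 0.02 counts, in each of the 6 libraries. Such runs, of up to 20 rows, held 7059 of the non-whole rows (51.9%), but none held Igf1, Egf or Erbb2. No single other row in the table gave whole sums with Igf1 or Egf. For Erbb2 there were 4 such rows, and as its count was non-whole in 1 library only, these were not taken as partners. The share that each transcript holds of all the reads it competes for could therefore not be given. The neighbouring row of Igf1 and that of Egf, chosen after their values were seen, were described in its place.

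The row just before Igf1 (ENSRNOT00000005995.5, not paired with a gene in the files) had 218 counts in control replicate 1 and 0 in control replicates 2 and 3. In the high-salt libraries it had 62.0, 0 and 42.6 counts. This row was thus high where Igf1 was low within the control group. Igf1 held 3.71% of the sum of these rows in control replicate 1 (exact binomial interval 1.54% to 6.86%). It held 100% in control replicates 2 and 3, with lower limits of 96.2% and 93.9%. Control replicate 1 thus resembled high-salt replicate 1, where Igf1 held 3.63% (0.381% to 10.8%), and high-salt replicate 3, where it held 0% (up to 8.22%). High-salt replicate 2 had no count of either row.

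Summed, the Igf1 row and the row before it had 19.2, 3.71 and 2.60 CPM in the control libraries and 3.52, 0 and 2.08 CPM in the high-salt libraries. The means were 8.50 ± 9.27 CPM (n = 3, SD) and 1.87 ± 1.77 CPM (n = 3, SD), and the groups overlapped, unlike those of the Igf1 transcript alone. The difference of the sum on the log2(CPM + 1) scale was -1.54, and it rested on single libraries at either end. It was -0.78 without control replicate 1 and -0.91 without high-salt replicate 2. Between same-numbered libraries the difference was -2.16, -2.24 and -0.22.

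The row just after Egf (ENSRNOT00000083713.1, not paired with a gene in the files) had 4.19 counts in control replicate 1, 0.0249 in control replicate 3 and practically none in control replicate 2. In high-salt replicate 1 it had 26.6 counts, and in high-salt replicates 2 and 3 it had 0. Its highest value was thus in a library with no count of Egf. Egf held 67.8% of the sum of these rows in control replicate 1 (exact binomial interval 38.6% to 90.9%), 100% in control replicate 2 and 99.9% in control replicate 3. In high-salt replicate 1 it held 0%, with an upper limit of 12.8%.

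Summed, the Egf row and the row after it had 1.10, 2.76 and 1.14 CPM in the control libraries and 1.45, 0 and 0 CPM in the high-salt libraries. High-salt replicate 1 lay above control replicates 1 and 3, so the groups of the sum overlapped. The means were 1.67 ± 0.946 CPM (n = 3, SD) and 0.485 ± 0.840 CPM (n = 3, SD), with a difference of -0.93 on the log2(CPM + 1) scale. Between the replicate 1 libraries the difference turned to 0.22, and it was -1.91 and -1.10 for replicates 2 and 3.

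These sums were not whole numbers, so reads are shared with transcripts that were not found. Whether the neighbouring rows share any reads with Igf1 or Egf was not tested, so the percentages above need not divide a common set of reads. Whether the neighbouring rows are transcripts of the same genes was not tested either. Neither neighbouring row was called in the exact test of edgeR. Changes of the leading row between libraries were also seen elsewhere in the table: among 2171 pairs of adjacent rows that did give whole sums and had at least 20 counts in at least 2 libraries, 163 (7.51%) had 1 row with at least 90% of the sum in 1 library and the other row with at least 90% in another. The rows of Igf1 and Egf are not among these pairs, and their neighbours were chosen with the values in view, so nothing is read from this share.

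**Figure D3:**
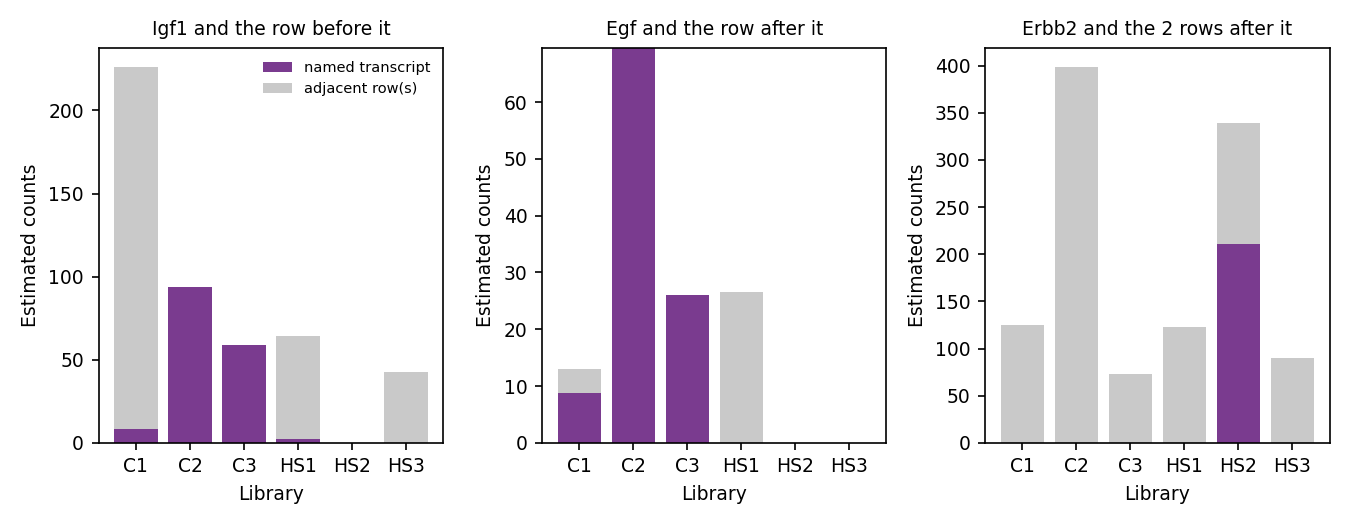
Estimated counts in each library (C, control; HS, high-salt) of the Igf1, Egf and Erbb2 transcripts in purple, stacked with the neighbouring rows of the table in grey. In control replicate 1 nearly all counts of the Igf1 pair, 218 of 226, lie in the neighbouring row, and in high-salt replicate 1 all 26.6 counts of the Egf pair do.

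Beside Erbb2 the neighbouring rows behaved differently. The row after it (ENSRNOT00000025496.6) had 125, 399 and 73 counts in control replicates 1, 2 and 3 and 123, 129 and 89.3 in high-salt replicates 1, 2 and 3. Together with the next row (ENSRNOT00000083116.1), which had 0.663 counts in high-salt replicate 3 and none elsewhere, it gave whole sums without Erbb2. No sharing of reads with Erbb2 was therefore seen in these rows. Their summed level was 9.88 ± 6.34 CPM (n = 3, SD) in the control group and 5.97 ± 1.37 CPM (n = 3, SD) in the high-salt diet group, with overlap, and neither row was called. In high-salt replicate 2 the 129 counts of the row after Erbb2 lay within the range of the other libraries, while Erbb2 itself had its 210.

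The transcripts most like each of the 3 were sought among 21774 others with at least 10 counts, by Pearson's r of log2(CPM + 1) over the 6 libraries. For Igf1 they were ENSRNOT00000007069.5 (r = 0.996) and ENSRNOT00000068499.2 (r = 0.995). For Egf they were ENSRNOT00000055016.4 (r = 0.999) and ENSRNOT00000091749.1 (r = 0.998). The matches of both ligands had few counts, with 1, 6 and 3 in control replicates 1, 2 and 3 for ENSRNOT00000055016.4 and at most 29.7 in any library for the other 3, so their order is not firm. All 4 followed the order of the ligands, with control replicate 2 highest, control replicate 1 lowest and 0 counts in each high-salt library. For Erbb2, 158 transcripts had an r over 0.99, since transcripts with counts almost solely in the same library give such values with each other. Ranked first, with ties broken by the total count, were ENSRNOT00000009556.7 and ENSRNOT00000078029.1, with 767 and 674 counts in high-salt replicate 2. All of these values share the 6 libraries and their depths.

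Of the other genes of the insulin-like growth factor and ERBB pathways that were listed for description, the transcript of Fyn (ENSRNOT00000075922.1), a Src family kinase, was the sole one that could be named. High-salt replicates 1, 2 and 3 had 5.90, 75.5 and 0 counts of it and the controls had none, with a high-salt mean of 1.43 ± 2.21 CPM (n = 3, SD). As with Erbb2, most counts were in high-salt replicate 2, and Fyn was not called in the exact test of edgeR. Fyn was called without high-salt replicate 3, and on unrounded counts with every transcript kept and tagwise dispersions. The latter call was fixed in advance, as the name was paired in that setting. This transcript too was known from the study's list of changed transcripts. Beyond the genes in the study's list, transcript identifiers could not be paired with genes, so the receptors Igf1r, Egfr, Erbb3 and Erbb4, the binding proteins and the markers of smooth muscle, endothelium and other cell types were not analysed here. The labelled cell type was therefore not checked against its markers.

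The promoters of the 3 genes are shown as a description of their sequence. The Igf1 and Egf transcripts were high and low in the same libraries and Erbb2 in another, but all 3 were selected on this contrast. As the row called Egf may be the Clasp1 transcript, the Egf window may belong to a gene whose transcript was not followed here. The windows run from 250 bases before to 50 bases after the RefSeq gene start of assembly GRCr8. They lie at chr7:24172282-24172581 on the plus strand for Igf1, chr2:220976248-220976547 on the minus strand for Egf and chr10:83907351-83907650 on the plus strand for Erbb2. All 3 genes were matched by symbol. The transcripts themselves belong to an annotation of another assembly, Rnor_6.0, and their own start sites need not lie in these windows. Capitals mark motif matches.
Igf1: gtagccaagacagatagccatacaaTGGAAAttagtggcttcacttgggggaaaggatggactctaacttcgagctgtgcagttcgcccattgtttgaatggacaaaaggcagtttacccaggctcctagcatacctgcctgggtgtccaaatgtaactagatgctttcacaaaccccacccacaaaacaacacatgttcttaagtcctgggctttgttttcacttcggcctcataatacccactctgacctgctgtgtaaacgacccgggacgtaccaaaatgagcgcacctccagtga
Egf: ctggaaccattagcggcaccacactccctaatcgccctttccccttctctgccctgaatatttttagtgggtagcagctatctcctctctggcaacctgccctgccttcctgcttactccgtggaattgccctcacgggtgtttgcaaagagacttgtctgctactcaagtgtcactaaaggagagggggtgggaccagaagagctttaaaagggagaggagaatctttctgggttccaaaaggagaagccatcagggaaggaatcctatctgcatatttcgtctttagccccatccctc
Erbb2: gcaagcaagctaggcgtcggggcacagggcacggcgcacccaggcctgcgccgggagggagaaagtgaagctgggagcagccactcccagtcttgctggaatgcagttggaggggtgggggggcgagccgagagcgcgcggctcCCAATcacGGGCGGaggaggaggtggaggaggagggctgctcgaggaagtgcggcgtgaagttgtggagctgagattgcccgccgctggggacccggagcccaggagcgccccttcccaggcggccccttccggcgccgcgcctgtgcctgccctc

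Searched on both strands were the TATA box core TATAAA, the CCAAT box CCAAT, the GC box GGGCGG, the E box CACGTG, the CArG box, which is known for binding serum response factor in smooth muscle genes, and TGGAAA, the core of the tonicity element bound by Nfat5. Over 33469 RefSeq promoter windows of rat, 14.2%, 37.5%, 33.1%, 6.42%, 1.64% and 22.7% held these motifs, in this order. The Igf1 window held TGGAAA at -225 to -220 from the start, and the Egf window held none of the 6. The Erbb2 window held CCAAT at -106 to -102 and GGGCGG at -98 to -93, without overlap. These matches describe the letters of the windows and are not evidence of binding.

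In base composition the Erbb2 window stood apart from those of the ligands. Its GC content was 71.3%, at the 93.4th percentile of all windows, against 48.3% for Igf1, 51.0% for Egf and a median of 51.7%. It held 25 CpG dinucleotides, whereas Igf1 held 7 and Egf 5. Divided by the number that its C and G content would give, the CpG count was 0.676 for Erbb2, 0.404 for Igf1 and 0.258 for Egf. The median of all windows was 0.392, with quartiles of 0.189 and 0.732, so all 3 values lay between the quartiles.

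**Figure D4:**
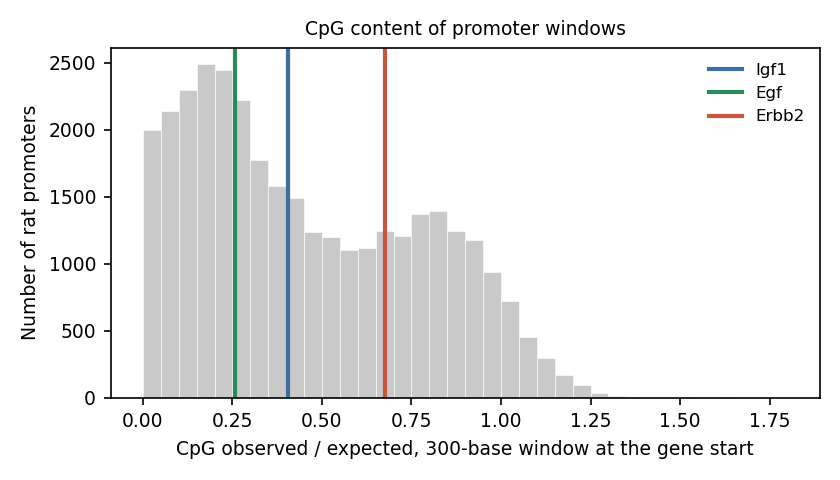
Histogram of the observed over expected CpG count (horizontal axis) over 33469 rat promoter windows of 300 bases (vertical axis, number of windows), with vertical lines for Egf, Igf1 and Erbb2. The lines stand at 0.258, 0.404 and 0.676, with the ligands near the median of 0.392 or below it and the receptor above. The transcript called Egf may be that of Clasp1, whose window is not shown.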

How the data were processed

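Poly(A) RNA of BASMCs from 3 control and 3 high-salt rats was sequenced as 6 libraries. The authors trimmed reads with Trimmomatic, checked them with FastQC, mapped them with HISAT2 (v2.0.13) to Rnor_6.0, obtained transcript counts with Kallisto, whose version and index are not given in the sources used here, and compared groups with edgeR. The deposited table holds the estimated count of each transcript, neither scaled for depth nor for length. Here, estimated counts were rounded to whole numbers, and transcripts with at least 1 count were compared with the exact test of edgeR (version 4.0.16, R 4.3.3), after TMM normalization and with dispersions by estimateDisp, the test the study names. The script was tested on simulated data of more abundant transcripts, so that test does not cover transcripts with as few counts as the 3 described here. CPM values are estimated counts scaled by the TMM-adjusted library size, and differences use log2(CPM + 1). Exact Poisson and binomial intervals were at the 95% level, with fractional counts kept for shares.

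Members and lists were chosen with earlier results of these data known. The table has no gene names, and the study's list of changed transcripts gives names with a fold change and p but no identifiers. The names of the 3 transcripts and of Fyn were paired with identifiers through these values. The pairing used the exact test of edgeR on unrounded counts with tagwise dispersions. It was taken as given, and no check that each fold change and p is met by a single transcript is shown here. In the study Clasp1 has the same fold change and p as Egf, so the match cannot tell these names apart. Described were the 3 transcripts, their neighbouring rows and the 2 transcripts most like each by Pearson's r. Genes of the pathway and cell type lists were to be described where a table pairs identifiers with names. The neighbouring rows were not found to share reads with the 3 transcripts. The RefSeq gene table held 0 of the identifiers, so these lists could not be used. Quantitative PCR values of Igf1 and Egf in the study were not used here.

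The labels give both groups the replicate numbers 1, 2 and 3. Over 21778 transcripts with at least 10 counts, deviations from the group means correlated at 0.596, 0.230 and 0.296 between same-numbered libraries. Each was over 0.1, and the block fit took the numbers as pairs on this basis. The basis is in the data and not in the labels, and it does not single out same-numbered libraries. Control replicate 2 with high-salt replicate 3 (0.264, more than with its own number) and control replicate 3 with high-salt replicate 2 (0.170) were also over 0.1. Alternatives were the size factors of DESeq2 (version 1.42.0), the filterByExpr filter, the quasi-likelihood test of edgeR without and with the replicate block, DESeq2, unrounded counts, unrounded counts with every transcript kept and tagwise dispersions (chosen after seeing the data), leaving out each library, and a pseudocount of 0.1 CPM. Promoters are from RefSeq (GRCr8).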

Additional observations from a re-analysis of the deposited data

How the results depend on the processing

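The alternatives for single transcripts and for neighbouring rows were chosen after seeing the data. With a pseudocount of 0.1 CPM the log2 difference was -3.95 for Igf1, -3.85 for Egf, 2.27 for Erbb2, -2.66 for the Igf1 row with its neighbour and -2.70 for the Egf row with its neighbour, as the smaller pseudocount compresses low levels less. Leaving out each library gave -1.98 to -1.25 for Igf1, -1.51 to -0.95 for Egf, 0 (without high-salt replicate 2) to 1.80 for Erbb2, -2.02 to -0.78 for Igf1 with its neighbour and -1.36 to -0.65 for Egf with its neighbour. The pooled share of Igf1 in its sum with the neighbouring row was 42.5% in the control group. It ranged from 23.6% (without control replicate 2) to 100% (without control replicate 1).

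Over all transcripts, 140 higher and 157 lower calls became 62 and 71 with filterByExpr, which tests fewer transcripts, 53 and 65 in the quasi-likelihood test, and 96 and 92 in DESeq2. They were 203 and 165 on unrounded counts with every transcript kept and tagwise dispersions, a setting chosen after seeing the data. With the replicate block, which assumes the pairing, the quasi-likelihood test gave 83 and 82, and the cause was not tested. Igf1 and Egf were called without and with the block, and Erbb2 and Fyn were not tested in either fit. Leaving out each library gave 83 (without control replicate 2) to 241 higher and 110 to 281 lower calls, the upper values both without high-salt replicate 1; the cause was not tested. After adjustment, the calls with 1 library left out were 4 higher and 1 lower, 2 and 4, and 2 and 1 without control replicates 1, 2 and 3, and 6 and 6, 4 and 2, and 7 and 1 without high-salt replicates 1, 2 and 3. With filterByExpr they were 0 and 2, and on unrounded counts with tagwise dispersions 0 and 0 (368 at an unadjusted p under 0.05). The quasi-likelihood test of edgeR called 0 transcripts (141 at an unadjusted p under 0.05), with the block 0 (327), DESeq2 4 higher and 2 lower (223) and the exact test 1 (301).

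The sums and shares of whole read-sharing runs, and the test of such runs, were not run, because no run held any of the 3 transcripts. Each group had 3 rats, and neither ligand had more than 93.6 counts in any library.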
